A study of Homo sapiens with 3 samples.

Results

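The 39 genes described here are interferon-stimulated genes (ISGs), the genes that cells switch on when an interferon reaches them. They were taken by name from a fixed list, and all 39 were among the 23284 gene names listed for each library. No measured value entered the rule, but the list was chosen with earlier results of these data known. The RNA came from 293T, a line of human kidney cells from an embryo that carries the SV40 large T antigen, and transcriptomes were compared after the antisense promoter (ASP) of the LINE-1 retrotransposon (L1) had been targeted. All 3 groups were transfected with dCas9-VP64, in which the activator VP64 is joined to a Cas9 that no longer cuts DNA, and expressed it transiently, so that no group was free of it. The mock group received it with a guide vector without an L1 guide, and the other groups received it with sgL1ASP #1 or with sgL1ASP #3, 2 guide RNAs against the L1 ASP. The values therefore come from a single transfected line, and the share of cells that took up the plasmids and the time at which RNA was collected are not given in the sources used here. In the paper's reporter assays in 293T cells, both guides activated the L1 ASP, sgL1ASP #1 more strongly. The sense promoter, which drives L1 mRNA, was suppressed with sgL1ASP #1 and slightly activated with sgL1ASP #3. No interferon-treated library was among the 3 analysed here. Each condition was measured in 1 library. The differences between conditions therefore have no replicate error, no test between them was run and no p-value is given.

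Interferons are secreted proteins that bind paired receptors on the cell surface, which activate the kinases JAK1 and TYK2 and through them transcription factors that include STAT2. Together with IRF9, STAT2 is part of a factor that binds the interferon-stimulated response element (ISRE) in front of ISGs, and another motif of the pathway is the gamma-activated site (GAS). ISG products act against viruses at entry, RNA replication, translation and budding, and several of them are themselves part of the pathway. RNA and DNA copies of retrotransposons are among the nucleic acids that innate sensors can recognise. The ISGs were read for this reason, as a test for an interferon response to targeting of the L1 ASP. The guides differ in their reported effect on the sense promoter, so the guide libraries do not both stand for activation of L1 mRNA.

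The DNA in front of the ISGs carried the response element more often than promoters in general. An exact match to the ISRE, taken as GAAA, 2 bases of any kind and GAAA on either strand, lay within the 250 bases before the transcription start of 20 of the 39 genes (51.3%), against 565 of 19856 protein-coding promoters (2.85%). With the 50 bases after the start included it was 24 of 39 (61.5%), against 3.29% of promoters. The 6 stretches below are shown because they stand in front of genes in common use as reporters of interferon (ISG15, IFIT1, RSAD2) and of 3 of the 4 expressed genes that were past 1.5-fold in a comparison (BST2, IFI6, IFI27). Each is written 5′ to 3′ on the strand of its gene, with the matches in capitals, where TTTC at both ends is the same element on the opposite strand.
ISG15: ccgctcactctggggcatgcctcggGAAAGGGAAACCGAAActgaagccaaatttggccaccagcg
IFIT1: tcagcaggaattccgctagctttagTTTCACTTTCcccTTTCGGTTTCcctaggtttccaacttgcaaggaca
RSAD2: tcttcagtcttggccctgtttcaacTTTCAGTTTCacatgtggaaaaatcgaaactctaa
BST2: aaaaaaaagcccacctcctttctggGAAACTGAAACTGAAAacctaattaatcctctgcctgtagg
IFI6: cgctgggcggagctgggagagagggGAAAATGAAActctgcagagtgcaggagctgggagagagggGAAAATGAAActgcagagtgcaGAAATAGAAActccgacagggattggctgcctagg
IFI27: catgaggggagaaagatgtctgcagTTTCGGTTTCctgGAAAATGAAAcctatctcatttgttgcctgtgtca

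In GRCh37, the sequence also known as hg19, these stretches lie on the plus strand at chr1:948739-948804 for ISG15, chr10:91152239-91152311 for IFIT1, chr2:7017738-7017797 for RSAD2 and chr14:94576949-94577021 for IFI27. Those of BST2 and IFI6 lie on the minus strand, at chr19:17516529-17516594 and chr1:27998762-27998884. All 6 are upstream of the annotated start and so outside the transcript. ISG15 and BST2 each held 2 matches that overlap, at 113 to 98 bases before the start of ISG15 and at 130 to 115 bases before that of BST2. IFI6 held 3 matches, and IFI27 held 1 on each strand. The GAS motif, spelled TTCNNNGAA, was in the window of 10 of the 39 genes (25.6%), against 1128 of 19856 promoters (5.68%), and in BST2 and IFI27 it overlapped an ISRE match. Such a match is a description of the letters in the window and not a measured binding site.

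**Figure D1:**
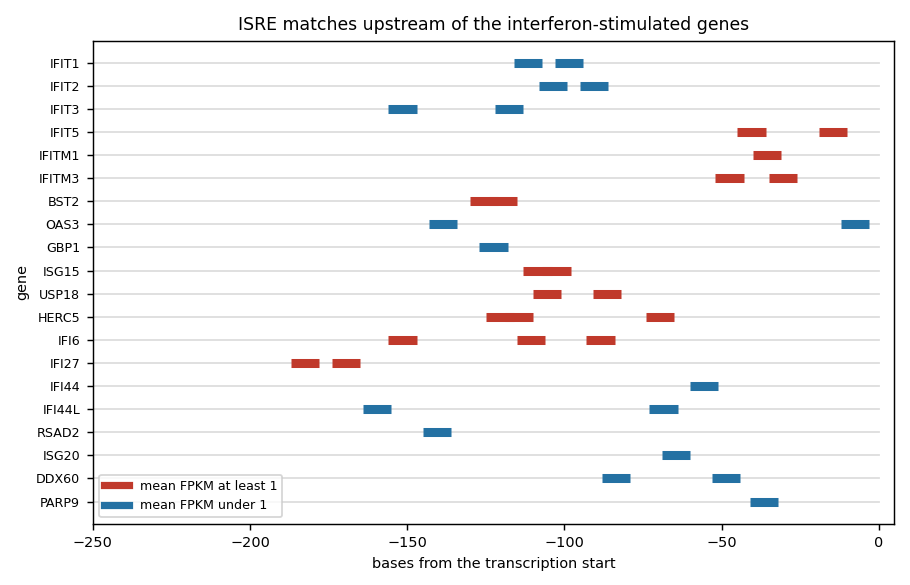
Position of each exact ISRE match in the 250 bases before the transcription start of the 20 ISGs that hold one. The x axis gives bases from the start and each bar is a match of 10 bases (overlapping matches join), red for the 9 genes with mean FPKM of at least 1 and blue for the 11 others. Most matches lie within the 150 bases before the start.

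Most of these genes were not expressed in 293T cells above a low limit. Values are FPKM, reads normalised to exon length and library size, which allows comparison between genes. Comparison between libraries rests on a scaling that is not given. The FPKM of all gene names summed to 619902.5 (mock), 661448.6 (sgL1ASP #1) and 673483.0 (sgL1ASP #3). A gene is called expressed here where its mean FPKM over the 3 libraries was at least 1. By this limit 16 of the 39 ISGs (41%) were expressed, against 12830 of all 23284 gene names (55.1%) and 10701 of 17008 protein-coding genes (62.9%). A further 16 were above 0 with a mean under 1, and for 10 of these the mean was under 0.15. The remaining 7 were listed at 0 in every library (17.9%), against 24.2% of all gene names and 16.4% of protein-coding genes. Only 5 ISGs reached FPKM 10 in every library (12.8%, against 29.6% of all gene names), namely IFITM1, IFITM2, IFITM3, ISG15 and STAT2. The levels summed over the 39 genes were 200.2 (mock), 195.4 (sgL1ASP #1) and 208.3 (sgL1ASP #3). The median level of the 16 expressed genes was 6.61, 5.62 and 5.57 in these libraries, where that of all expressed genes was 12.2 in each.

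**Figure D2:**
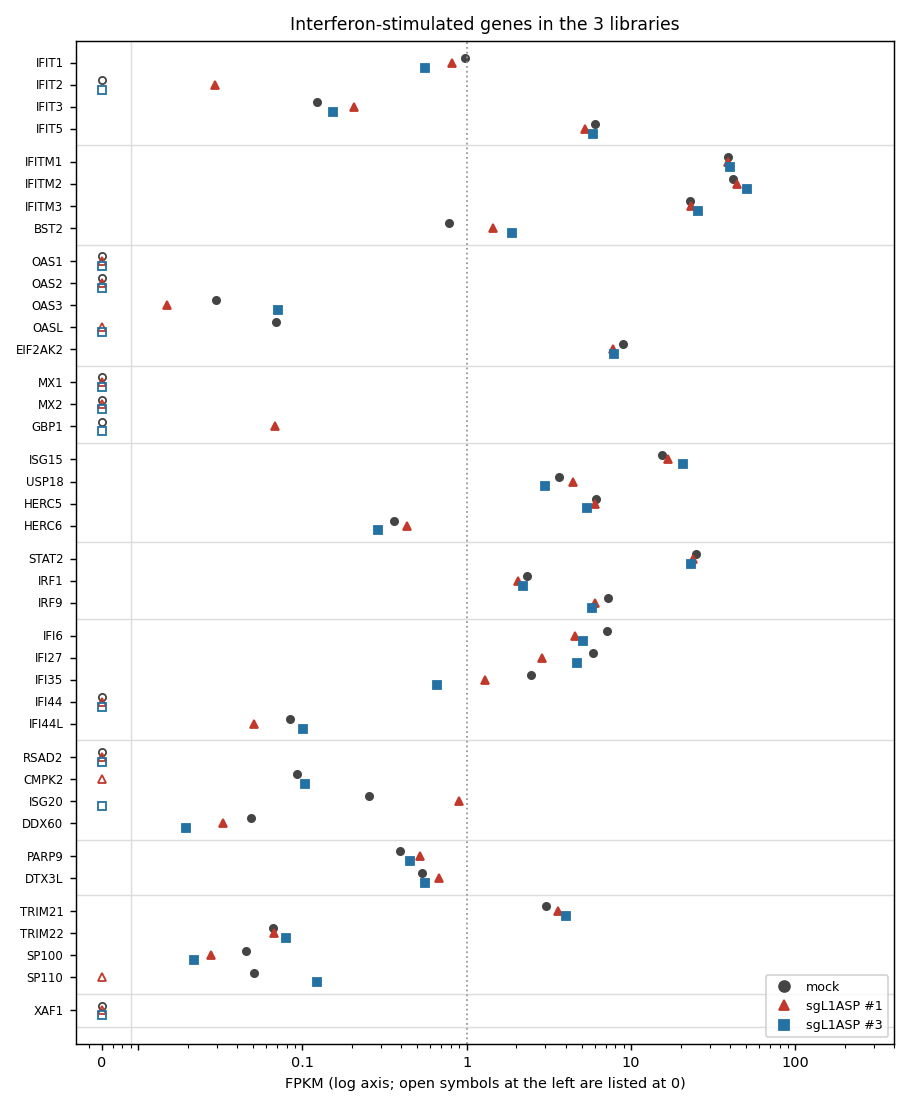
FPKM of the 39 ISGs, grouped by role, in mock (black circles), sgL1ASP #1 (red triangles) and sgL1ASP #3 (blue squares), on a log axis with values listed at 0 drawn as open symbols at the left. The dotted line marks FPKM 1. The 7 genes at 0 in every library include OAS1, MX1 and RSAD2, while the symbols of most genes above FPKM 1 lie close together.

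Of 6 genes much used as reporters of an interferon response, MX1, OAS1 and RSAD2 were listed at 0 in all 3 libraries, IFIT1 was under FPKM 1, and ISG15 and IFI27 were expressed. MX1 and MX2, dynamin-like GTPases that trap viral ribonucleoproteins and capsids, were listed at 0 in mock, in sgL1ASP #1 and in sgL1ASP #3. OAS1 and OAS2, synthetases whose product activates RNase L on double-stranded RNA, were listed at 0 throughout as well, and so were RSAD2 (viperin, which makes a chain-terminating nucleotide), IFI44 and the pro-apoptotic XAF1. At the depth estimated for these libraries, a count of 0 allows up to 3 reads, equal to an FPKM of 0.113 for MX1, 0.203 for OAS1 and 0.0907 for RSAD2 in mock, and of 0.136, 0.245 and 0.109 in sgL1ASP #3, the shallowest library. Levels below these limits cannot be told from 0. An exact 0 can also stand for a failed estimate. Of all gene names, 113 were listed at 0 in 1 library or more and at FPKM 10 or more in another. Of these, 0 were among the 17008 names annotated as protein-coding, a set that leaves out names absent from the annotation. Such a count says nothing about genes listed at 0 in every library, like those above.

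The IFIT proteins bind foreign RNA and hold back its translation, and their genes lie side by side on chromosome 10 in the order IFIT2, IFIT3, IFIT1 and IFIT5. IFIT1 (chr10:91152380-91166244, plus strand, 2 exons) had an FPKM of 0.979 in mock, 0.817 in sgL1ASP #1 and 0.554 in sgL1ASP #3. It was highest in mock, and the values stand for only 17, 14 and 8 reads, as far as whole reads can be recovered from the spacing of low FPKM values. These numbers imply a transcript of 1884 bases, against an annotated 4302, so the true numbers may be larger. IFIT5 was the expressed gene of the family, at 6.04, 5.22 and 5.87 in mock, sgL1ASP #1 and sgL1ASP #3. The 3 libraries thus lay within 1.5-fold of each other for IFIT5. IFIT2 and IFIT3 did not exceed 0.207 in any library.

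IFITM2 and IFITM1 had the highest levels of the 39 ISGs in every library. IFITM1, IFITM2 and IFITM3 are small membrane proteins that block fusion of incoming viruses, and their genes lie next to each other on chromosome 11. IFITM2 had an FPKM of 41.8 in mock, 44 in sgL1ASP #1 and 50.5 in sgL1ASP #3. IFITM1 was at 38.9, 38.6 and 39.8 in the same order. IFITM3 was at 22.8, 23.1 and 25.4. All of these were highest in sgL1ASP #3, by log2 differences to mock of 0.27, 0.03 and 0.16, although the difference for IFITM1 turned to -0.09 once the FPKM of the libraries were brought to a common sum. The ratio of IFITM2 in sgL1ASP #3 to mock was 1.21 with a 95% counting interval of 1.04 to 1.4, from reads computed by transcript length. The 3 genes are close copies of each other, so reads may have been divided among them uncertainly.

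BST2 (tetherin, chr19:17513748-17516439, minus strand, 5 exons), which holds budding virus particles on the cell surface, was the gene with the largest increase among the expressed ISGs in both guide libraries. Its FPKM stood at 0.781 in mock, at 1.45 with sgL1ASP #1 and at 1.88 with sgL1ASP #3, so that mock was the lowest library. These levels stand for 6, 11 and 12 reads. The ratio to mock was 1.86 for sgL1ASP #1, with a 95% interval of 0.63 to 6.12, and 2.41 for sgL1ASP #3, with an interval of 0.836 to 7.82, so that both intervals include 1. With a pseudocount of 1 in place of 0.1, BST2 was past 1.5-fold with sgL1ASP #3 and not with sgL1ASP #1. Such intervals cover the counting of reads only, compare libraries and not conditions, and were not adjusted for the number of genes.

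Among the enzymes that sense double-stranded RNA, EIF2AK2 (the kinase PKR, which stops translation) was expressed, with an FPKM of 8.92 in mock, 7.71 in sgL1ASP #1 and 7.82 in sgL1ASP #3. Both guide libraries differed from mock by -0.21 and -0.19 on the log2 scale, within 1.5-fold. The ratios were 0.864, with a 95% counting interval of 0.784 to 0.953, and 0.876, with an interval of 0.792 to 0.971, both wholly below 1, where the read numbers rest on an annotated transcript of 9975 bases and a shorter one would widen the intervals. OAS3 and OASL, of the same family as OAS1, stayed at or below 0.0713 in every library. GBP1, a GTPase that attacks vacuoles of intracellular pathogens, was above 0 in sgL1ASP #1 alone, at 0.0678, which equals about 2 reads.

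ISG15, a ubiquitin-like protein that is joined to other proteins during an interferon response, had an FPKM of 15.4 in mock, 16.8 in sgL1ASP #1 and 20.8 in sgL1ASP #3. This gene lies at chr1:948877-949920 on the plus strand, with 2 exons, behind the overlapping ISRE matches printed above. Its level was highest in sgL1ASP #3, at a ratio to mock of 1.35 with a 95% counting interval of 0.971 to 1.91, and the ratio for sgL1ASP #1 was 1.1 with an interval of 0.783 to 1.55. Both stayed within 1.5-fold, and the reads behind them were about 69, 75 and 78. USP18, the protease that removes ISG15 and also dampens the receptor, was at 3.65 in mock, 4.43 in sgL1ASP #1 and 3.01 in sgL1ASP #3, so that it stood above mock with the former guide and below it with the latter. HERC5, the ligase that attaches ISG15, was at 6.10, 6.07 and 5.37, and its neighbour HERC6 did not exceed 0.432.

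The transcription factors of the pathway among the ISGs were all expressed and within 1.5-fold of mock. STAT2, which the receptor's kinases activate, had an FPKM of 24.8 in mock, 23.8 in sgL1ASP #1 and 23 in sgL1ASP #3. IRF9, the DNA-binding part of the factor that holds STAT2, was at 7.25, 6.03 and 5.76. IRF1, an activator with a GAS match in its own window, was at 2.33, 2.05 and 2.19. All 3 were highest in mock, and the lowest of their log2 differences was -0.33, for IRF9 with sgL1ASP #3.

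The IFI genes held 3 of the expressed ISGs and all of those that were past 1.5-fold lower than mock. IFI27 (chr14:94577161-94583032, plus strand, 5 exons), a small mitochondrial protein and a widely used reporter of interferon, had an FPKM of 5.84 in mock, 2.85 in sgL1ASP #1 and 4.69 in sgL1ASP #3. These stand for 27, 13 and 18 reads, and the ratio to mock was 0.488 with a 95% counting interval of 0.231 to 0.978, which ends just below 1, for sgL1ASP #1, and 0.802 with an interval of 0.416 to 1.51 for sgL1ASP #3. Mock was the highest library and sgL1ASP #1 the lowest.

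IFI6 (chr1:27992575-27998703, minus strand, 5 exons), another mitochondrial protein, which counters apoptosis, was at 7.12 in mock, 4.57 in sgL1ASP #1 and 5.11 in sgL1ASP #3, or 52, 33 and 31 reads. Its ratios to mock were 0.641, with an interval of 0.403 to 1.01, and 0.717, with an interval of 0.444 to 1.14. Mock was again the highest library, and both intervals include 1. The gene overlaps the non-coding gene LINC02574 on the same strand, which is not among the gene names in the tables, so its reads cannot be told apart from those of IFI6.

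IFI35 (chr17:41158801-41166473, plus strand, 7 exons), a partner of the protein NMI, was at 2.47 in mock, 1.30 in sgL1ASP #1 and 0.659 in sgL1ASP #3. These values stand for 27, 14 and 6 reads and descend from mock to sgL1ASP #3. The ratio to mock was 0.525 with an interval of 0.255 to 1.04 for sgL1ASP #1, and 0.267 with an interval of 0.0903 to 0.661 for sgL1ASP #3, an interval that lies wholly below 1. IFI44L stayed at or below 0.101 in all libraries.

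The other ISGs were mostly near the limit of detection. ISG20, an exonuclease for single-stranded RNA, was at 0.254 in mock and 0.902 in sgL1ASP #1 and was listed at 0 in sgL1ASP #3, or 2, 7 and 0 reads. The ratio of sgL1ASP #1 to mock was 3.55 with a counting interval of 0.675 to 35, and the 0 in sgL1ASP #3 allows an FPKM of up to 0.459. The read numbers of ISG20 imply a transcript of 962 bases, against an annotated 1583, so they too may be larger. CMPK2, the kinase gene next to RSAD2, and DDX60, a helicase linked to RNA sensing, did not exceed 0.103. PARP9 and DTX3L, an ADP-ribosyltransferase and a ubiquitin ligase that act as a pair and whose genes run in opposite directions with a gap of 37 bases between their starts, were between 0.390 and 0.676 in all libraries, and both were highest in sgL1ASP #1. TRIM21, a receptor for antibodies in the cytosol, was expressed, at 3.04 in mock, 3.58 in sgL1ASP #1 and 3.99 in sgL1ASP #3, with both guide libraries above mock and within 1.5-fold. TRIM22 and the nuclear body genes SP100 and SP110 did not exceed 0.122. Over all 16 expressed ISGs, the counting interval left out 1 for 2 genes with sgL1ASP #1 (EIF2AK2 and IFI27), for 3 with sgL1ASP #3 (IFITM2, EIF2AK2 and IFI35) and for 0 between the guides. The same count was not made over all expressed genes, so whether these numbers are many or few cannot be read from them. The reads of EIF2AK2 and IFITM2 were computed by transcript length.

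For sgL1ASP #1 against mock, 1 of the 16 expressed ISGs was past 1.5-fold higher (BST2) and 3 were past 1.5-fold lower (IFI6, IFI27 and IFI35). A gene counted as past 1.5-fold where log2(FPKM + 0.1) differed by more than the log2 of 1.5, a scale on which low genes change less than by their plain ratio. Of all 12830 expressed genes, 1.76% were past the limit in the higher direction and 1.79% in the lower one, against 6.25% and 18.8% of the ISGs. Of the 2007 genes with mean FPKM from 1 to under 3, which include BST2, IFI35 and IRF1, 12.8% were past it in either direction, and 2 of the 3 ISGs were. Of the 3592 genes from 3 to under 10, 2.51% were past it, and so were 2 of the 8 ISGs there, IFI6 and IFI27. None of the 5 ISGs from 10 to under 100 was past it, where 1.15% of 6370 genes were. The median log2 difference was -0.03 over the 16 ISGs and 0.0008 over all expressed genes. Of the ISGs, 6 (37.5%) were higher and 10 lower than mock, where 50.3% of all expressed genes were higher.

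For sgL1ASP #3 against mock, BST2 was past 1.5-fold higher and IFI35 past 1.5-fold lower, so that 1 of 16 was past it in each direction, against 1.75% and 2.05% of all expressed genes. Their log2 differences were 1.17 and -1.76, and both belong to the genes of FPKM 1 to under 3, of which 13.7% were past the limit. The median log2 difference was -0.10 over the ISGs and 0.0015 over all expressed genes. Again 6 ISGs (37.5%) were higher and 10 lower, where 50.4% of all expressed genes were higher. Rescaling each library to an FPKM sum of 1000000, which moved the median of all expressed genes to -0.117, gave 1 ISG higher and 3 lower, as IFI6 (log2 difference -0.59) came past the limit and IFIT1 came past the expression filter. IFIT1, whose mean was under 1, differed by -0.72 between sgL1ASP #3 and mock before rescaling.

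Both comparisons share the mock library, so they are not independent, and a low or high value in that library enters each. Past 1.5-fold in both were BST2 on the higher side and IFI35 on the lower side, 1 of 16 each, against 0.678% of all expressed genes on the higher side and the same 0.678% on the lower. Their values in mock rest on 6 and 27 reads. Neither reached FPKM 1 in every library, as BST2 was at 0.781 in mock and IFI35 at 0.659 in sgL1ASP #3. Each passed the expression filter through the libraries where it was high, so filter and change are not independent for them. The other 14 expressed ISGs were at FPKM 1 or more in all libraries. BST2 and IFI35 are also the only ISGs behind the counts for sgL1ASP #3 against mock. When the guides were compared with each other, IFI35 was past 1.5-fold higher in sgL1ASP #1 than in sgL1ASP #3 and IFI27 past 1.5-fold lower, by log2 differences of 0.88 and -0.70. That is 1 of 16 in each direction, against 1.96% of all expressed genes higher and 1.82% lower. The median log2 difference between the guides was -0.12 over the ISGs. None of the 39 ISGs met the stepwise rule of the study, under which FPKM is more than 1.5-fold higher in sgL1ASP #3 than in mock and more than 1.5-fold higher again in sgL1ASP #1. With mock above 0, 52 of 23284 gene names (0.223%) met it. That is fewer than the paper reports, so the rule as applied here did not reproduce its list. At so small a share, the absence of ISGs says little about them.

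**Figure D3:**
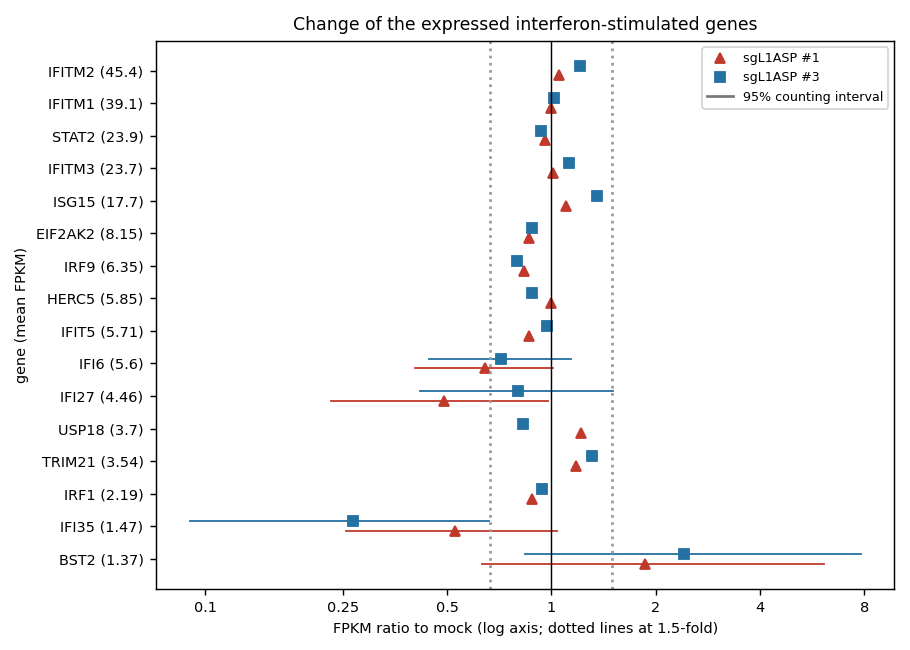
FPKM ratio to mock of the 16 expressed ISGs, ordered by mean FPKM (in brackets), for sgL1ASP #1 (red triangles) and sgL1ASP #3 (blue squares) on a log axis, with dotted lines at 1.5-fold. Horizontal lines are 95% counting intervals, drawn for the 4 genes whose whole reads could be recovered. The 5 genes with mean FPKM above 10 lie between the dotted lines, and those outside for at least 1 guide are BST2, IFI6, IFI27 and IFI35.

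**Figure D4:**
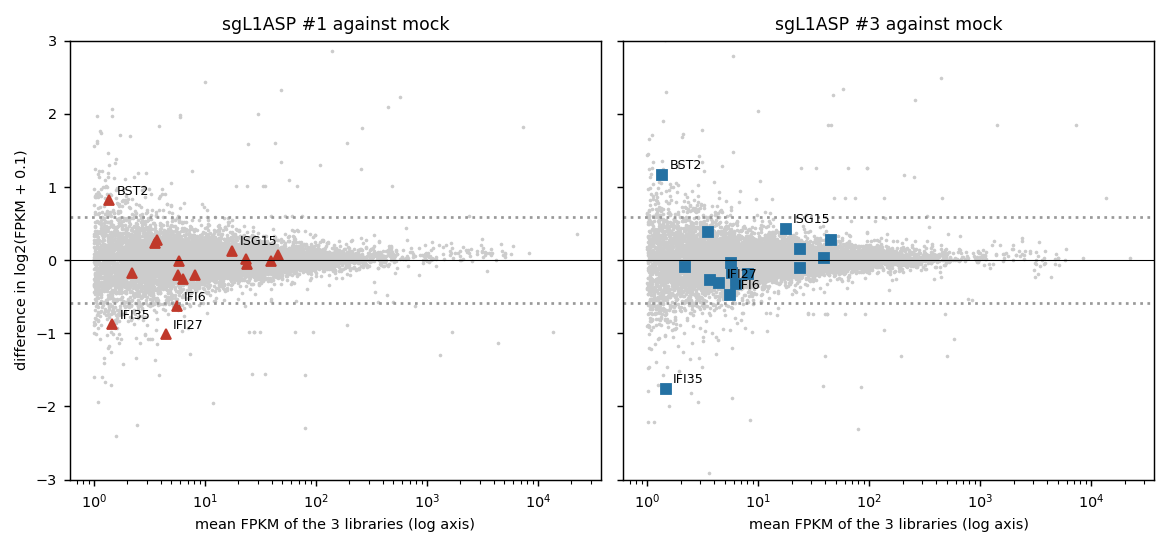
Difference to mock in log2(FPKM + 0.1) against mean FPKM (log axis) for all 12830 expressed genes (grey) and the 16 expressed ISGs (coloured), for sgL1ASP #1 (left) and sgL1ASP #3 (right), with dotted lines at 1.5-fold. The grey points spread out toward low FPKM, where BST2 and IFI35 lie, and 91 and 88 genes fall outside the y axis.

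The rest of the interferon pathway was followed through 73 other genes in 7 lists. Of these, 31 were expressed, and 0 of the 31 were past 1.5-fold in any of the comparisons, beside the shares of all expressed genes given above. The log2 differences of the 31 ran from -0.29 (RELB) to 0.31 (IL10RB) with sgL1ASP #1 and from -0.28 (TAPBP) to 0.39 (IFNAR2) with sgL1ASP #3.

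Of 21 interferon genes, 17 were listed at 0 in every library, among them IFNB1 and IFNG. IFNA5 was at 0.466 in sgL1ASP #3 and at 0 in the others, and IFNE, IFNK and IFNW1 were above 0 in a single library each, at 0.102 or less. No read numbers were computed for these values, which can rest on few reads. The receptors were present, as all 6 of their genes were expressed. IFNAR1 and IFNAR2, which form the receptor for alpha and beta interferon, were at 13.4 and 13.3 in mock, 12.2 and 14.3 in sgL1ASP #1 and 13 and 17.4 in sgL1ASP #3. Of 5 signalling genes 4 were expressed, and JAK1 stood at 21.1 in each library. Among 7 other interferon regulatory factors 2 were expressed, of which IRF3, the factor that switches on interferon genes, was at 41.9, 40.2 and 39.1, while IRF7, which amplifies that step, did not exceed 0.471.

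Of 8 inhibitors 6 were expressed, and SOCS1 and SOCS3, which are induced by cytokine signalling, were under 1 in all libraries. SOCS1 was at 0.283 in mock, 0.0956 in sgL1ASP #1 and 0.909 in sgL1ASP #3. SOCS3 was at 0.49, 0.458 and 0.861 in the same order, so that both were highest in sgL1ASP #3, by log2 differences to mock of 1.40 and 0.70. With sgL1ASP #1 the differences were -0.97 and -0.08. No read numbers or counting intervals were computed for these genes, and values this low can rest on few reads. Antigen presentation, which interferon raises, had 10 of 14 genes expressed. B2M, the light chain of class I molecules, was at 199 in mock, 217 in sgL1ASP #1 and 208 in sgL1ASP #3, whereas the immunoproteasome gene PSMB9 was listed at 0 in all of them. Of 12 NF-kappaB targets 3 were expressed, with NFKBIA, the inhibitor of NF-kappaB, at 19.3, 19.9 and 19.7. The chemokine gene CXCL10, which answers both to NF-kappaB and to interferon, was listed at 0 throughout.

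**Figure D5:**
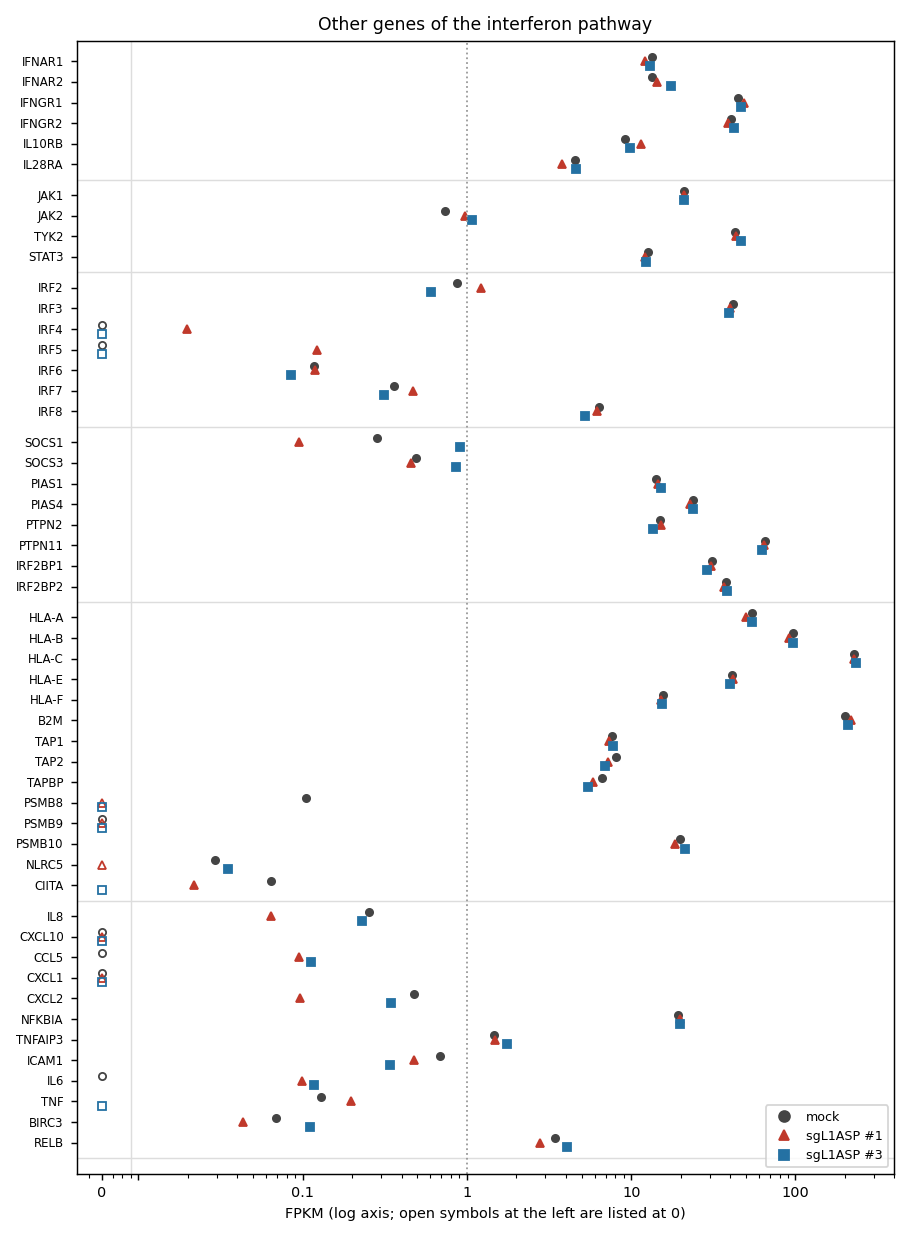
FPKM of other genes of the pathway (the interferon genes, mostly at 0, and 1 signalling gene are left out) in mock (black circles), sgL1ASP #1 (red triangles) and sgL1ASP #3 (blue squares), on a log axis with values listed at 0 drawn as open symbols at the left. Receptors and kinases lie mostly above FPKM 1 (dotted line), with the 3 libraries close together, and PSMB9 and CXCL10 are at 0 in all.

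ISGs with and without an ISRE match were found both among the expressed genes and among those at 0. Of the 20 ISGs with a match in the 250 bases before the start, 9 were expressed and 2 (IFI44 and RSAD2) were listed at 0 in all libraries. Of the 19 without one there, 7 were expressed and 5 (OAS1, OAS2, MX1, MX2 and XAF1) were listed at 0. With the 50 bases after the start included, OAS2, EIF2AK2, TRIM21 and DTX3L held a match as well. The split was not repeated for that longer window. The median log2 differences of the expressed genes were -0.01 with sgL1ASP #1 and -0.04 with sgL1ASP #3 for those with a match, and -0.18 and -0.10 for those without. BST2, past 1.5-fold higher, and IFI27, past 1.5-fold lower, each held both kinds of motif. IFI35 held no ISRE match in either window.

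The depth of mock was estimated at 10300000 reads, and by the worth of 1 read sgL1ASP #1 had 0.987 and sgL1ASP #3 had 0.831 of the depth of mock. Of 9 genes that mark 293T cells, 7 were expressed, among them KRT8, KRT18, VIM and LIN28B, while PAX2 and EYA1 were under 1. Of 9 blood cell markers, 2 were expressed, CD68 among them, and PTPRC, CD3E and LYZ were listed at 0, and their FPKM summed to 6.11 (mock), 7.55 (sgL1ASP #1) and 5.82 (sgL1ASP #3). Of 6 fibroblast markers, COL1A1 was expressed and COL1A2 and DCN were listed at 0, with a summed FPKM of 3.23, 2.28 and 2.8. No expressed marker was past 1.5-fold in any comparison. In such bulk RNA, fewer cells that express a gene and less of its RNA per cell cannot be told apart.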

How the data were processed

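RNA-seq values of 3 libraries were used, each assigned to its condition from its title. Per the labels and the methods, total RNA was made into stranded mRNA libraries and sequenced in single-end mode, reads were mapped to hg19 with TopHat2 2.0.13, Bowtie2 2.2.3 and SAMtools 0.1.19, and the authors ran Cuffdiff (Cufflinks 2.2.1) in a strand-specific mode to obtain the FPKM of each gene that they deposited. The gene annotation and the scaling between libraries are not given in the sources used here. 0 value columns belonged to no sample.

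The members and lists were chosen with earlier results of these data known. FPKM were used without rescaling, and differences were taken as log2(FPKM + 0.1) over genes with mean FPKM of at least 1. Every such member is named with its values. Others are named by value where FPKM was at least 1 in any library, where they were past 1.5-fold between libraries both above 0.1, or where they are IFIT1, ISG15, MX1, OAS1, IFI27 or RSAD2, and by their range otherwise. Alternatives were other pseudocounts, filters, thresholds and scalings. Gene positions and promoter windows (canonical transcripts) are from GENCODE 44 lifted to GRCh37. The windows of 24 of the 39 members, with 50 bases after the start, were identical to those of RefSeq's table for GRCh38.p14.

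The read numbers were not part of the planned design. They were added after the data were seen, and the rule for accepting them was revised after the first version gave implausible transcript lengths for several members. Low FPKM values are whole multiples of what 1 read is worth, which was 1.0130 times the mock value in sgL1ASP #1 and 1.2033 times in sgL1ASP #3. A gene's reads are the smallest whole numbers that match its values within 0.2%, so that true numbers could be multiples of them. Up to 10 reads in the lowest library were taken as they came, and 11 to 45 only with an implied transcript length within 15% of the annotated one. Of 440 lowly expressed genes with 1 transcript, 390 (88.6%) gave such numbers, and of these 64.1% had an implied length within 15% of the annotated one. Read numbers of other genes, ISG15 and GBP1 among those named, and the limits for values of 0 are approximate, being computed from the depth and the annotated length less a fragment of 200 bases. Intervals are exact (Clopper-Pearson) 95% intervals and leave out every error but that of counting.

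Both the 1.5-fold rule and the read recovery were tried on simulated data. The planted changes were all increases and well above 1.5-fold, so decreases and changes near the limit were not covered. The recovery was scored on ratios of reads, not on their absolute numbers. Computations used pandas 2.3.3 and NumPy 2.4.6, intervals SciPy 1.17.1 and plots matplotlib 3.10.9, under Python 3.11.15. Protein sequences were not used here, and some items are not reported here.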

Additional observations from a re-analysis of the deposited data

How the results depend on the processing

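No paired analysis was possible because the conditions have 1 library each. Of 67 alternative values, 47 stayed within 1.5 times of the reported count or, for medians, within the log2 of 1.5 of the reported median, and 20 did not. Every alternative median was among the 47, by a margin that is wide for medians so near 0. All 20 that moved were counts. The medians ran from -0.15 to 0.00 for sgL1ASP #1 against mock, from -0.22 to 0.00 for sgL1ASP #3 against mock and from -0.12 to 0.00 between the guides, lowest for both guides against mock with an FPKM sum of 1000000 and at 0.00 with no filter. With a filter at mean FPKM 5, which leaves 10 of the 16 expressed ISGs, 1 was past 1.5-fold for sgL1ASP #1 against mock (4 in the report; 1.53% of all genes), 0 for sgL1ASP #3 against mock (1.59%), 0 between the guides (1.62%) and 0 in either direction with both guides. With no filter, so that values of a few reads enter, the counts were 9, 5 and 6 of 39 in the same order, against 9.31%, 9.56% and 9.77% of all gene names, and 2 were lower with both guides (2.28%). A pseudocount of 1 gave 2 for sgL1ASP #1 against mock (1.89%), 0 between the guides (2.23%) and 0 higher with both guides (0.366%). Rescaling to an FPKM sum of 1000000 gave 4 of 17 for sgL1ASP #3 against mock (5.53%) and 2 lower with both guides (1.23%). It also turned the sign of 2 genes with sgL1ASP #1 (IFITM2 and IFITM3), of IFITM1 with sgL1ASP #3 and of EIF2AK2 between the guides, and rescaling to the median ratio turned that of 0. At 1.2-fold the counts of 16 were 9 for sgL1ASP #3 against mock (4 higher and 5 lower, against 14.8% of all genes), 5 between the guides (14.7%) and 3 lower with both guides (2.99%). At 2-fold they were 1 for sgL1ASP #1 against mock (IFI27, 1.45%) and 0 between the guides (1.68%). Beyond what each alternative changes by construction, the cause was not tested. With no replicates, spread between cultures is not measured. By the estimated read numbers, BST2, IFI27, IFI35 and the ISGs under FPKM 1 rest on at most 39 reads per library.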
